A study of Homo sapiens with 9 samples.

Results

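Interferon-stimulated genes and sensors of foreign nucleic acid were followed across HCT-15 cells made tolerant to CoCl2, HCT-15 cells made tolerant to low glucose, and untreated HCT-15 controls. The 39 genes were taken by name from a list of the interferon pathway, and all 39 were found among the 36018 genes of the count tables. Of these, 35 passed the low-count filter, along with 17902 genes in all, and 4 did not (CGAS, MX2, RSAD2 and XAF1). HCT-15 is an established human colorectal adenocarcinoma line, labelled wild type in genotype and kept in RPMI1640 with 10% serum. CoCl2 is cobalt chloride, a salt widely used to mimic hypoxia. Both tolerant lines were selected by culture under a rising level of the stress, and the control received none. Each group has 3 RNA-seq libraries, and levels are given as CPM, the read count scaled to the total of its library. There were 25178615 to 32674687 counted reads per library. Each tolerance is represented by 1 derived line, so the error given is a spread between libraries. For log2 changes it is estimated over all 3 groups together, and for mean levels it is the SD within a group. No label says that the libraries of a line came from separate cultures. Both comparisons against control use the same 3 control libraries.

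Cells detect viral or misplaced RNA through the cytosolic helicases RIG-I (gene DDX58) and MDA5 (IFIH1), which signal through MAVS, and detect DNA through cGAS and STING. These pathways switch on type I interferon, whose receptor activates a complex with STAT2 and IRF9 that binds the interferon-stimulated response element in the promoters of antiviral genes. Interferon gamma acts at gamma-activated sites, partly by way of IRF1.

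The genes did not move as a block in either line. In CoCl2-tolerant cells 8 of the 35 tested genes were higher and 8 lower than in controls, beside 17.9% and 18.2% of all genes, and 19 did not pass the test. That is 45.7% called, against 36.1% of all genes tested, so the share was near the background. In low-glucose-tolerant cells 13 were higher, 8 lower and 14 did not pass, or 60.0% called against 69.2% of all genes (34.6% in each direction). Changes of at least 2-fold were called for 2 genes higher and 3 lower in CoCl2-tolerant cells, beside 4.59% and 6.49% of all genes. In low-glucose-tolerant cells they were called for 7 higher and 6 lower, beside 15.7% and 21.0%, and 36.7% in either direction. For 21 of the 35 genes all CoCl2-tolerant libraries lay on one side of all controls, beside 57.2% of all genes, and for 22 all low-glucose-tolerant libraries did, beside 73.3%. The median log2 change over the 35 genes was -0.12 in CoCl2-tolerant cells, beside 0.01 over all genes, and 0.16 in low-glucose-tolerant cells, beside -0.01 over all genes. The low-glucose-tolerant median of the 35 genes was 0.27 without low-glucose-tolerant replicate 1, 0.06 when scaled by library totals and 0.30 with a trend on transcript length and GC content removed. Calls rest on an adjusted p under 0.05 by the quasi-likelihood test of edgeR with Benjamini-Hochberg adjustment over all genes tested, written below as edgeR adjusted p. Leaving out CoCl2-tolerant replicate 3 or control replicate 3 left 5 genes higher and 5 lower in CoCl2-tolerant cells, and leaving out control replicate 2 also left 5 lower.

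IFI35, IFI44, IFIT2, IFIT3, IRF1 and IRF7 rose in both lines. OAS3 and STING1 fell in both lines. MX1 alone passed the test in opposite directions, lower in CoCl2-tolerant and higher in low-glucose-tolerant cells. Another 12 genes passed only against control in low-glucose-tolerant cells, 6 higher (DHX58, IFI44L, IFITM2, IFITM3, OAS1 and OASL) and 6 lower (DDX58, HERC6, IFI27, IFIT1, IRF9 and STAT2). IFIT5 and TRIM22 were higher, and BST2, EIF2AK2, MAVS, SAMHD1 and USP18 lower, in CoCl2-tolerant cells without passing in low-glucose-tolerant cells. HERC5, IFI6, IFIH1, IFITM1, ISG15, ISG20 and OAS2 passed in neither. Passing in one line and missing in the other does not show a difference between lines, and differences between the lines are taken from their direct comparison. There 9 genes were higher in CoCl2-tolerant than in low-glucose-tolerant cells, against 31.9% of all genes, and 15 were lower, against 32.0%, or 68.6% called against 63.9% of all genes.

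**Figure D1:**
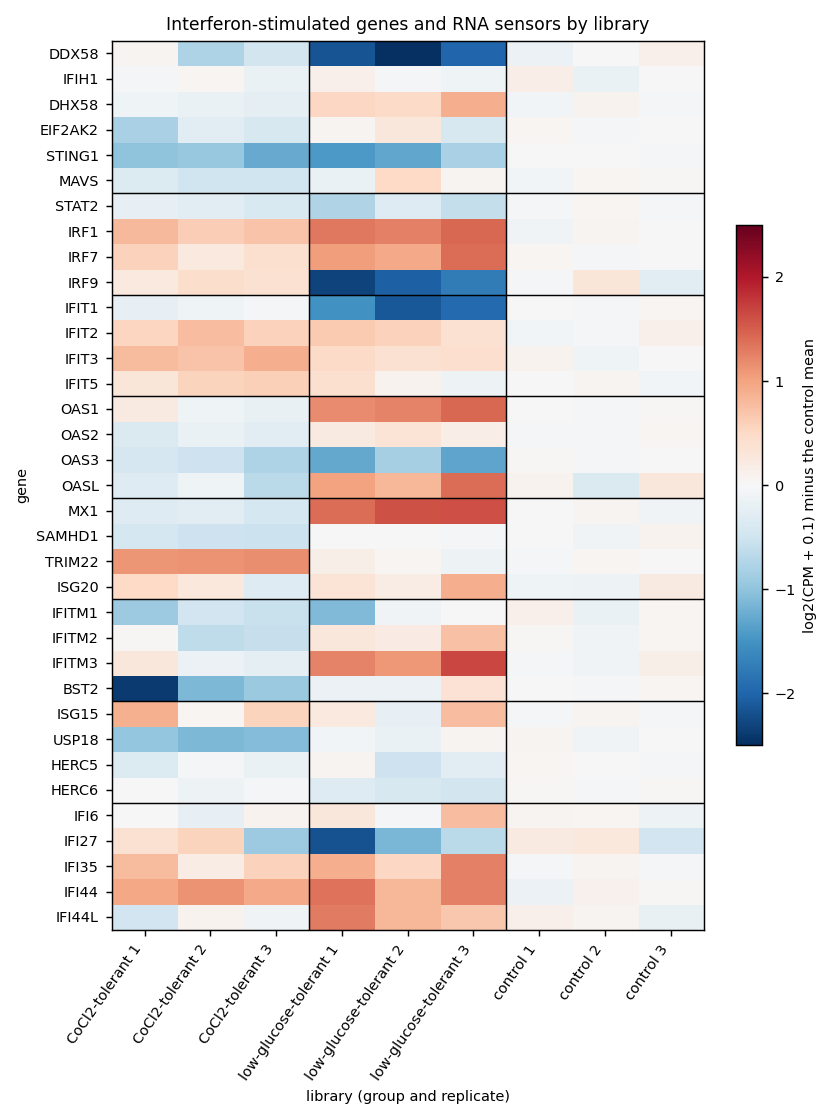
Log2 of CPM plus 0.1 in every library minus the mean of the 3 control libraries, as colour, with the 35 tested genes as rows grouped by role and the libraries as columns, CoCl2-tolerant at the left, low-glucose-tolerant next and control at the right. IFIT1, IRF9 and DDX58 are low in all 3 low-glucose-tolerant libraries, while MX1, OAS1 and IFITM3 are high in the same libraries.

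Promoters of 28 of the 39 genes were found in RefSeq (build GRCh38.p14), each 300 bases long, from 250 before to 50 after the annotated start. The interferon-stimulated response element was searched as GAAANNGAAA on both strands and was present in 18 of these 28 genes, or 64.3%, against 4.38% of the 27305 genes in the table. The gamma-activated site, searched as TTCNNNGAA, which reads the same on both strands, was present in 8 of the 28 genes, or 28.6%, against 9.38% of those genes. The sequences below belong to 6 genes that had the largest called change against control in their role group. Genes with and without a match to GAAANNGAAA fell in the same line. Capitals mark matches to the response element.
DDX58 promoter, chr9:32526147-32526446, minus strand: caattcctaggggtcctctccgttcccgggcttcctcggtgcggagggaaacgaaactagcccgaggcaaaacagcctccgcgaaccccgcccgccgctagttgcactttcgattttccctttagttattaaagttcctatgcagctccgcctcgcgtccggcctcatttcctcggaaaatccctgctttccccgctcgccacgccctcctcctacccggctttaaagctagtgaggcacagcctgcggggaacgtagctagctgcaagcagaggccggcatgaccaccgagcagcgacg
IRF9 promoter, chr14:24161015-24161314, plus strand: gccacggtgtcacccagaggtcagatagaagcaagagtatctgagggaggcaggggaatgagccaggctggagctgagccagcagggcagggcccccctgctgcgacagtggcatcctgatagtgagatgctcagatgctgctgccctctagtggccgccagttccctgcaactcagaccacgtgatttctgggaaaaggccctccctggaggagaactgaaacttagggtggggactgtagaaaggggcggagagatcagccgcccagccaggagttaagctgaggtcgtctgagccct
IFIT1 promoter, chr10:89392373-89392672, plus strand: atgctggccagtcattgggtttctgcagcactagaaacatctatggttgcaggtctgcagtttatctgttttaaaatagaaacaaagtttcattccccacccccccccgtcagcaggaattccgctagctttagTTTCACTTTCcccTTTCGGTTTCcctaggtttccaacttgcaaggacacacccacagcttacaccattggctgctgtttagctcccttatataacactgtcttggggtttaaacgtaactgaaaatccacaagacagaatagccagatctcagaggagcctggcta
MX1 promoter, chr21:41420308-41420607, plus strand: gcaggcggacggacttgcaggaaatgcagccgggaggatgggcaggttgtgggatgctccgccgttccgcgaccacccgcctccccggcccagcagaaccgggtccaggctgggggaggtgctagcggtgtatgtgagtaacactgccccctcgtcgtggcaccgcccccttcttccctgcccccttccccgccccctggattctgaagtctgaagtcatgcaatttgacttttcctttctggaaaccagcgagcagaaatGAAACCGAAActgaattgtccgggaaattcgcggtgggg
BST2 promoter, chr19:17405581-17405880, minus strand: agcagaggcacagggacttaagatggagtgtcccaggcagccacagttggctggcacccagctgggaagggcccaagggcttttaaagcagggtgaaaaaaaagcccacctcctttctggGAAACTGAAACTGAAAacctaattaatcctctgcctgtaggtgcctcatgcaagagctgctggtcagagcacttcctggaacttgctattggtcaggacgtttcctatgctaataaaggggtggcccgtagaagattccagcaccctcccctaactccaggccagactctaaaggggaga
IFI27 promoter, chr14:94110486-94110785, plus strand: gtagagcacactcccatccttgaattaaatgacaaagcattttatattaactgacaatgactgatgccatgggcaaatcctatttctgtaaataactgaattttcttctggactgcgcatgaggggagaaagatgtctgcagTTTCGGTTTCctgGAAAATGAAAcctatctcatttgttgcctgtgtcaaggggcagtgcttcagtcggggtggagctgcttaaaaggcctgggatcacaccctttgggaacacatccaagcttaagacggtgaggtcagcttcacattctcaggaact
DDX58 and IRF9, the genes with the largest falls in low-glucose-tolerant cells, had no match to the response element in these windows, and IRF9 had 1 gamma-activated site match. IFIT1 and IFI27, which also fell there, each had 2, and MX1, which rose there, had 1. BST2 had 2 that overlap each other, and 1 of its 2 gamma-activated site matches and the only one of IFI27 overlap the capitals. For IFI27 and MX1, the first of several RefSeq starts is printed. The DDX58 window also holds 2 copies of GAAA with 1 base between them, which the search did not count. A match of letters does not show that a factor binds, and a missing match does not show that none does.

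Of the factors that carry the signal, IRF1 and IRF7 rose in both lines. STAT2 and IRF9, partners in the same complex, fell in low-glucose-tolerant cells and did not pass the test in CoCl2-tolerant cells. IRF1 encodes an interferon-gamma-inducible transcription factor (chromosome 5, 132481609 to 132490798, minus strand, GRCh38). It had 57.5, 49.9 and 53.9 CPM in CoCl2-tolerant libraries, 81.8, 78.1 and 88.6 CPM in low-glucose-tolerant libraries, and 30.8, 34.5 and 32.9 CPM in controls. The 3 groups did not overlap, and low-glucose-tolerant cells stood highest. The log2 change was 0.72 ± 0.11 (SE, n = 3 each, as throughout) in CoCl2-tolerant cells (edgeR adjusted p = 0.000155) and 1.34 ± 0.11 in low-glucose-tolerant cells (edgeR adjusted p = 6.73e-08). CoCl2-tolerant cells lay below low-glucose-tolerant cells by a log2 difference of -0.62 ± 0.11 (edgeR adjusted p = 0.000136). Antisense and neighbouring transcripts overlap 22% of the exon bases of IRF1 on the other strand, and whether the counting used strand is not known here.

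IRF7 encodes the factor that amplifies type I interferon transcription. It had 12.2, 9.77 and 10.8 CPM in CoCl2-tolerant libraries, 16.9, 15.9 and 21.8 CPM in low-glucose-tolerant libraries, and 8.42, 8.02 and 8.13 CPM in controls. All tolerant libraries lay above all controls, and all low-glucose-tolerant libraries above all CoCl2-tolerant ones. Its log2 change was 0.41 ± 0.14 in CoCl2-tolerant cells (edgeR adjusted p = 0.0358) and 1.15 ± 0.14 in low-glucose-tolerant cells (edgeR adjusted p = 5.23e-06), and the lines differed by -0.74 ± 0.14 (edgeR adjusted p = 0.000359). The CoCl2-tolerant call was lost without CoCl2-tolerant replicate 1 or 3 or without any of the 3 controls, with edgeR adjusted p of 0.0823 to 0.114.

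STAT2, a subunit of the interferon-activated complex, had 73.7, 69.7 and 65.0 CPM in CoCl2-tolerant libraries, 50.2, 67.5 and 56.2 CPM in low-glucose-tolerant libraries, and 83.2, 87.4 and 83.3 CPM in controls. Every tolerant library was below every control, while the tolerant lines overlapped. The fall passed in low-glucose-tolerant cells (log2 change -0.55 ± 0.12, edgeR adjusted p = 0.000846) and missed the threshold in CoCl2-tolerant cells (-0.28 ± 0.12, edgeR adjusted p = 0.0724). The CoCl2-tolerant value passed when only the compared groups were fitted (edgeR adjusted p = 0.00711), without low-glucose-tolerant replicate 1 or 2 (0.0454 and 0.0158), and after removing the trend on length and GC (-0.33, edgeR adjusted p = 0.00679).

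IRF9, the DNA-binding subunit of the complex (chromosome 14, 24161053 to 24166565, plus strand), had 47, 62 and 59 counts in CoCl2-tolerant libraries, 7, 9 and 11 counts in low-glucose-tolerant libraries, and 47, 67 and 41 counts in controls. As CPM these are 1.89, 2.17 and 2.08 in CoCl2-tolerant, 0.238, 0.308 and 0.398 in low-glucose-tolerant and 1.53, 1.97 and 1.3 in control libraries. Low-glucose-tolerant libraries stood apart below the other 6, while CoCl2-tolerant and control libraries overlapped. The log2 change in low-glucose-tolerant cells was -2.34 ± 0.28 (edgeR adjusted p = 4.7e-06), and the ratio of summed counts puts controls 5.14-fold higher (95% counting interval 3.4 to 8.05). The change in CoCl2-tolerant cells, 0.35 ± 0.22, did not pass (edgeR adjusted p = 0.223), and CoCl2-tolerant exceeded low-glucose-tolerant cells by 2.69 ± 0.28 (edgeR adjusted p = 1.32e-06).

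The IRF9 counts carry an uncertainty of annotation. On the same strand, 48.4% of its exon bases are shared with AL136295.5, a read-through gene that also spans the neighbour RNF31, so reads there may be left uncounted or split. AL136295.5 had 12, 2 and 7 counts in CoCl2-tolerant, 5, 3 and 2 in low-glucose-tolerant and 7, 4 and 6 in control libraries. RNF31, a ubiquitin ligase subunit named after its values were seen, had 50, 49 and 46 counts in CoCl2-tolerant, 6, 6 and 7 in low-glucose-tolerant and 60, 61 and 46 in control libraries. RNF31 thus fell beside IRF9 in the low-glucose-tolerant line, by a log2 change of -2.95 ± 0.28 (edgeR adjusted p = 4.01e-07). Whether both falls share a source was not tested.

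Among sensors and adaptors, 3 of the 6 tested genes fell and none rose in CoCl2-tolerant cells, while 1 rose and 2 fell in low-glucose-tolerant cells. That is 50% called in each line, beside 36.1% of all genes in CoCl2-tolerant and 69.2% in low-glucose-tolerant cells. The 3 RNA helicases took 3 different courses in low-glucose-tolerant cells. DDX58, which encodes RIG-I and is listed as RIGI in current tables (chromosome 9, 32455705 to 32526324, minus strand), had 49, 30 and 38 counts in CoCl2-tolerant libraries, 10, 7 and 11 counts in low-glucose-tolerant libraries, and 52, 64 and 65 counts in controls. In CPM the libraries read 1.97, 1.05 and 1.34 for CoCl2-tolerant, 0.34, 0.24 and 0.398 for low-glucose-tolerant and 1.69, 1.88 and 2.06 for control. All 3 low-glucose-tolerant libraries were below the other 6, and 1 CoCl2-tolerant library lay within the control range. On the log2 scale the change was -2.52 ± 0.31 in low-glucose-tolerant cells (edgeR adjusted p = 4.77e-06), with controls 5.79-fold higher by summed counts (95% counting interval 3.87 to 8.96). It was -0.38 ± 0.25 in CoCl2-tolerant cells (edgeR adjusted p = 0.246), and the lines differed by 2.14 ± 0.32 (edgeR adjusted p = 4.46e-05).

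IFIH1, the gene for MDA5, a sensor of long double-stranded RNA, had 12.8, 13.5 and 11.6 CPM in CoCl2-tolerant libraries, 14.2, 12.6 and 12 CPM in low-glucose-tolerant libraries, and 14.6, 11.6 and 12.9 CPM in controls. The 3 groups overlapped throughout, with log2 changes of -0.04 ± 0.13 in CoCl2-tolerant (edgeR adjusted p = 0.819) and -0.01 ± 0.13 in low-glucose-tolerant cells (edgeR adjusted p = 0.961). DHX58, the gene for LGP2, a helicase that modulates the other pair, had 14.9, 14.3 and 13.6 CPM in CoCl2-tolerant libraries, 23.0, 22.3 and 30.1 CPM in low-glucose-tolerant libraries, and 15.3, 17.1 and 15.8 CPM in controls. Low-glucose-tolerant libraries were above all others. Its log2 change there was 0.65 ± 0.13 (edgeR adjusted p = 0.000477), against -0.17 in CoCl2-tolerant cells (edgeR adjusted p = 0.332), and CoCl2-tolerant cells lay below low-glucose-tolerant cells by -0.82 ± 0.13 (edgeR adjusted p = 8.39e-05).

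MAVS, the mitochondrial adaptor of these helicases, had 84.3, 75.5 and 74.8 CPM in CoCl2-tolerant libraries, 95, 150 and 112 CPM in low-glucose-tolerant libraries, and 101, 110 and 108 CPM in controls. CoCl2-tolerant libraries were below all others, and low-glucose-tolerant libraries spread across the control range. The fall in CoCl2-tolerant cells, a log2 change of -0.45 ± 0.14 (edgeR adjusted p = 0.0245), was lost without CoCl2-tolerant replicate 2 or 3 or control replicate 2 or 3 (edgeR adjusted p 0.0724 to 0.0883). With a trend on transcript length and GC content removed it was -0.15 (edgeR adjusted p = 0.0848), and the low-glucose-tolerant value of 0.16 (edgeR adjusted p = 0.329) became 0.37 (edgeR adjusted p = 0.000176).

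EIF2AK2 encodes PKR, the kinase that halts translation on double-stranded RNA. It had 51.3, 74.0 and 68.2 CPM in CoCl2-tolerant libraries, 94.3, 110 and 68.5 CPM in low-glucose-tolerant libraries, and 93.3, 87.4 and 89.4 CPM in controls. CoCl2-tolerant libraries were below all controls, and low-glucose-tolerant replicate 3 lay within the CoCl2-tolerant range. The fitted log2 change was -0.48 ± 0.16 in CoCl2-tolerant cells (edgeR adjusted p = 0.0326), lost without CoCl2-tolerant replicate 1 or 3 or any 1 control (edgeR adjusted p 0.0622 to 0.125). It was 0.01 in low-glucose-tolerant cells (edgeR adjusted p = 0.95), and 0.44 once the length and GC trend was removed (edgeR adjusted p = 0.000157).

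CGAS and STING1 transcripts were few in all 3 groups. CGAS, the cytosolic DNA sensor, had 2, 0 and 3 counts in CoCl2-tolerant libraries, 1, 0 and 1 counts in low-glucose-tolerant libraries, and 0, 0 and 2 counts in controls. At this depth 3 counts are 0.0918 to 0.119 CPM without the TMM factor. STING1, the adaptor of cGAS, had 10, 12 and 9 counts in CoCl2-tolerant libraries, 8, 9 and 13 counts in low-glucose-tolerant libraries, and 28, 31 and 28 counts in controls. All 6 tolerant libraries were below all 3 controls. The log2 change was -1.24 ± 0.3 in CoCl2-tolerant cells (edgeR adjusted p = 0.0057) and -1.36 ± 0.3 in low-glucose-tolerant cells (edgeR adjusted p = 0.0011). By summed counts controls were 2.39-fold higher than CoCl2-tolerant cells (95% counting interval 1.57 to 3.72) and 2.6-fold higher than low-glucose-tolerant cells (1.7 to 4.08). Such intervals cover counting error only.

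**Figure D2:**
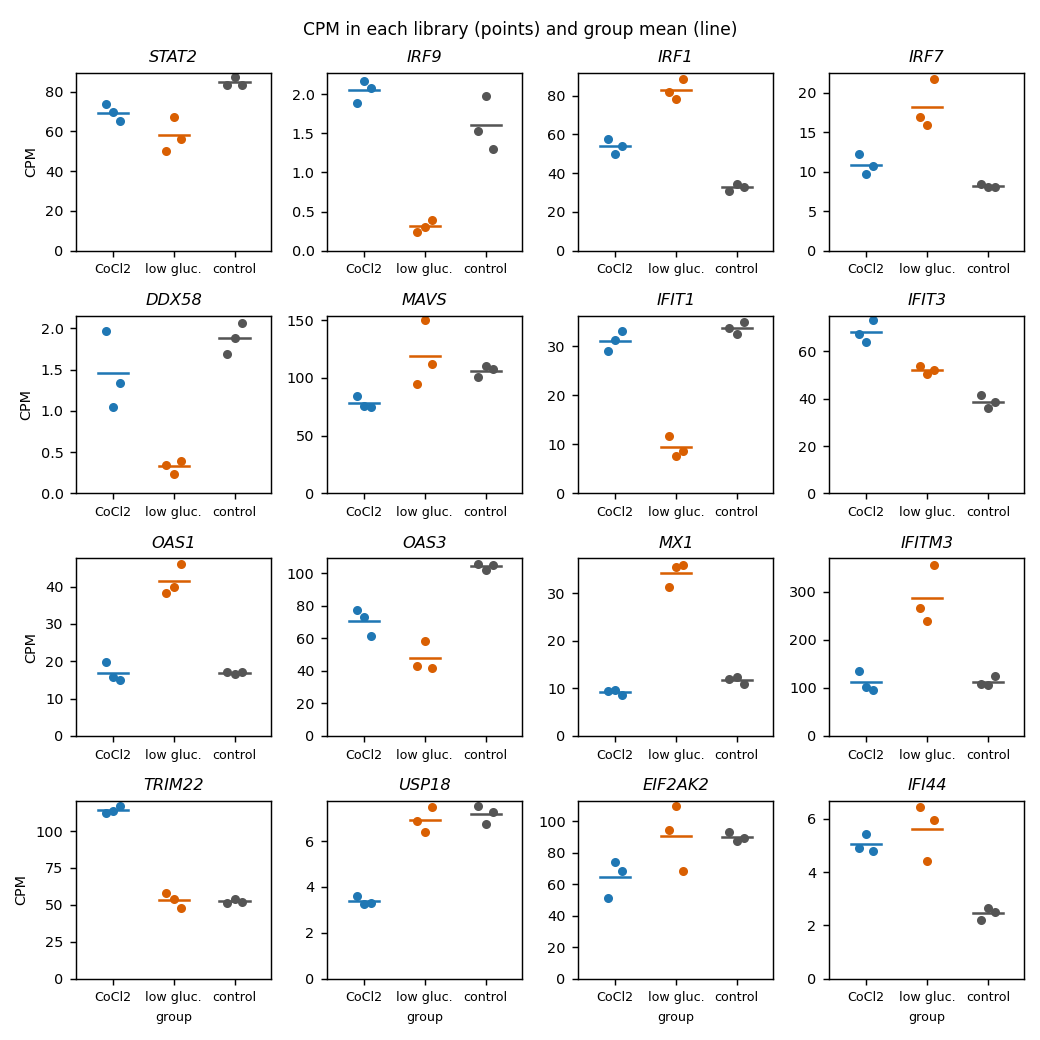
CPM on a linear axis from 0 of 16 genes, with 1 point per library and a line at the group mean, CoCl2-tolerant at the left of each panel, low-glucose-tolerant in the middle and control at the right. DDX58, IRF9 and IFIT1 are low in the low-glucose-tolerant libraries, MX1, OAS1 and IFITM3 are high in them, and TRIM22 is high in the CoCl2-tolerant libraries.

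The 4 IFIT genes, which encode proteins that bind foreign RNA and sit side by side on chromosome 10, moved in different directions in low-glucose-tolerant cells, where IFIT1 fell, IFIT2 and IFIT3 rose and IFIT5 did not pass. IFIT1 (89392546 to 89406486, plus strand) had 29.1, 31.3 and 33.1 CPM in CoCl2-tolerant libraries, 11.8, 7.68 and 8.65 CPM in low-glucose-tolerant libraries, and 33.7, 32.6 and 34.9 CPM in controls. Low-glucose-tolerant libraries stood far below the other 6, and CoCl2-tolerant and control libraries overlapped. The fall in low-glucose-tolerant cells was a log2 change of -1.85 ± 0.15, or 3.6-fold lower (edgeR adjusted p = 5.87e-08). In CoCl2-tolerant cells it was -0.12 ± 0.14 (edgeR adjusted p = 0.541), and the lines differed by 1.73 ± 0.15 (edgeR adjusted p = 1.55e-07).

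IFIT3 (89327894 to 89340971, plus strand), whose protein stabilises IFIT1, went the other way. It had 67.3, 63.9 and 73.2 CPM in CoCl2-tolerant libraries, 53.8, 50.4 and 52.1 CPM in low-glucose-tolerant libraries, and 41.4, 36.1 and 38.8 CPM in controls. The groups did not overlap. Its log2 change was 0.81 ± 0.1 in CoCl2-tolerant (edgeR adjusted p = 4.25e-05) and 0.43 ± 0.1 in low-glucose-tolerant cells (edgeR adjusted p = 0.00221).

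IFIT2 (89283694 to 89309276), another RNA-binding member, rose to a mean of 32.6 CPM in CoCl2-tolerant cells and 30.6 CPM in low-glucose-tolerant cells, against 21.0 CPM in controls. Those are log2 changes of 0.63 ± 0.12 in CoCl2-tolerant (edgeR adjusted p = 0.000915) and 0.54 ± 0.12 in low-glucose-tolerant cells (edgeR adjusted p = 0.000882). The noncoding AL353751.1 shares 8.68% of the IFIT2 exon bases on the same strand in the annotation used here. AL353751.1 averaged 19.3 ± 2.55 CPM in CoCl2-tolerant, 2.71 ± 0.288 CPM in low-glucose-tolerant and 18.7 ± 0.59 CPM in control cells (SD, n = 3). What this overlap does to the IFIT2 counts was not tested. IFIT5 (89414586 to 89421001) had 28.3, 34.1 and 35.0 CPM in CoCl2-tolerant libraries, 30.3, 24.5 and 21.1 CPM in low-glucose-tolerant libraries, and 23.2, 24 and 21.9 CPM in controls. CoCl2-tolerant libraries were above all controls, and low-glucose-tolerant libraries overlapped both other groups. Its rise in CoCl2-tolerant cells (log2 change 0.49 ± 0.14, edgeR adjusted p = 0.0125) was lost without CoCl2-tolerant replicate 3 (0.0588) or control replicate 3 (0.0601). In low-glucose-tolerant cells IFIT5 changed by 0.14 (edgeR adjusted p = 0.396), and by 0.32 with the length and GC trend removed (edgeR adjusted p = 0.00201). CoCl2-tolerant exceeded low-glucose-tolerant cells by 0.36 ± 0.14 (edgeR adjusted p = 0.0336), a call lost in 9 of 17 alternatives.

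The oligoadenylate synthetases, which make the second messenger that activates RNase L, also split between neighbours. OAS1, OAS3 and OAS2 lie in that order on chromosome 12, and OASL, a relative without that enzyme activity, lies elsewhere on the chromosome. OAS1 (112906777 to 112933222, plus strand) had 19.8, 15.7 and 14.9 CPM in CoCl2-tolerant libraries, 38.4, 39.8 and 46.0 CPM in low-glucose-tolerant libraries, and 17.0, 16.5 and 17.1 CPM in controls. Low-glucose-tolerant libraries stood above the rest, and CoCl2-tolerant libraries straddled the controls. On the log2 scale the change was 1.29 ± 0.13, or 2.45-fold, in low-glucose-tolerant cells (edgeR adjusted p = 6.02e-07) and -0.01 in CoCl2-tolerant cells (edgeR adjusted p = 0.966). CoCl2-tolerant lay below low-glucose-tolerant cells by -1.3 ± 0.13 (edgeR adjusted p = 7.72e-07).

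OAS3 (112938352 to 112973249, plus strand) had 77.5, 73.1 and 61.3 CPM in CoCl2-tolerant libraries, 43.0, 58.4 and 41.8 CPM in low-glucose-tolerant libraries, and 106, 102 and 105 CPM in controls. The groups did not overlap, with controls highest. It fell by a log2 change of -0.56 ± 0.13 in CoCl2-tolerant cells (edgeR adjusted p = 0.00514) and -1.13 ± 0.14 in low-glucose-tolerant cells (edgeR adjusted p = 4.48e-06). OAS2, between them in direction, had means of 11.4 CPM in CoCl2-tolerant, 16.4 CPM in low-glucose-tolerant and 13.8 CPM in control cells. OAS2 passed against control neither in CoCl2-tolerant (edgeR adjusted p = 0.077) nor in low-glucose-tolerant cells (edgeR adjusted p = 0.0638). The first passed without low-glucose-tolerant replicate 2 (0.0417) and with only the compared groups fitted (0.0314), and the second without CoCl2-tolerant replicate 1 (0.0491), without low-glucose-tolerant replicate 3 (0.0422) or after removing the trend on length and GC (0.0133). In the direct comparison CoCl2-tolerant lay below low-glucose-tolerant cells by -0.52 ± 0.11 (edgeR adjusted p = 0.00116).

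OASL had 1.24, 1.47 and 0.953 CPM in CoCl2-tolerant libraries, 3.3, 2.88 and 4.34 CPM in low-glucose-tolerant libraries, and 1.69, 1.21 and 1.94 CPM in controls. Only the low-glucose-tolerant libraries stood clear of the others. The log2 change there was 1.12 ± 0.23 (edgeR adjusted p = 0.000579), against -0.39 in CoCl2-tolerant cells (edgeR adjusted p = 0.253), and CoCl2-tolerant lay below low-glucose-tolerant cells by -1.51 ± 0.24 (edgeR adjusted p = 8.49e-05).

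MX1, the dynamin-like GTPase that traps viral nucleocapsids (chromosome 21, 41420304 to 41459214, plus strand), had 9.35, 9.66 and 8.62 CPM in CoCl2-tolerant libraries, 31.3, 35.4 and 35.9 CPM in low-glucose-tolerant libraries, and 11.9, 12.4 and 11.0 CPM in controls. The groups did not overlap, and controls lay between the tolerant lines. MX1 rose 2.9-fold in low-glucose-tolerant cells (log2 change 1.54 ± 0.11, edgeR adjusted p = 3.24e-08). Its fall in CoCl2-tolerant cells was smaller, at -0.35 ± 0.12 (edgeR adjusted p = 0.0298), and was lost with the replicate number as a block (edgeR adjusted p = 0.0559). It was also lost with no filter on low counts (0.088), and without CoCl2-tolerant replicate 1 or 3 or any 1 control (edgeR adjusted p 0.0529 to 0.128). The lines differed by -1.89 ± 0.12 (edgeR adjusted p = 6.83e-09).

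TRIM22, an antiviral ubiquitin ligase (chromosome 11, 5689689 to 5737089, plus strand), had 112, 114 and 117 CPM in CoCl2-tolerant libraries, 58.1, 53.9 and 48.1 CPM in low-glucose-tolerant libraries, and 51.0, 54.1 and 52.0 CPM in controls. CoCl2-tolerant libraries stood above the other 6, and low-glucose-tolerant libraries spread over the control range. The fitted log2 change was 1.13 ± 0.1, or 2.19-fold, in CoCl2-tolerant cells (edgeR adjusted p = 1.86e-06) and 0.03 in low-glucose-tolerant cells (edgeR adjusted p = 0.825). CoCl2-tolerant exceeded low-glucose-tolerant cells by 1.1 ± 0.1 (edgeR adjusted p = 4.64e-07).

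SAMHD1, which depletes the nucleotides that viral polymerases use, had 28.4, 26.9 and 26.5 CPM in CoCl2-tolerant libraries, 38.0, 38.1 and 37.5 CPM in low-glucose-tolerant libraries, and 38.2, 36.2 and 40.8 CPM in controls. CoCl2-tolerant libraries were below all others, with a log2 change of -0.5 ± 0.1 (edgeR adjusted p = 0.00192) and a difference of -0.47 ± 0.1 from low-glucose-tolerant cells (edgeR adjusted p = 0.000989). ISG20, an RNA exonuclease, had means of 4.2 CPM in CoCl2-tolerant, 5.3 CPM in low-glucose-tolerant and 3.7 CPM in control cells and passed in no comparison. In low-glucose-tolerant cells ISG20 missed at an edgeR adjusted p of 0.0571 and passed in 6 of 16 alternatives, which included leaving out low-glucose-tolerant replicate 2 (0.0204), CoCl2-tolerant replicate 1 (0.0428) or 3 (0.0351) or control replicate 3 (0.0449), omitting the filter (0.0101) and fitting only the compared groups (0.0442). MX2, a relative of MX1, had 11 counts in CoCl2-tolerant, 3 in low-glucose-tolerant and 10 in control libraries in sum and was not tested. RSAD2, which encodes viperin, had 3 counts in CoCl2-tolerant, 6 in low-glucose-tolerant and 4 in control libraries in sum and was not tested.

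The membrane restriction factors were led by IFITM3, which blocks virus fusion in endosomes (chromosome 11, 319669 to 327537, minus strand). It had 136, 101 and 96.5 CPM in CoCl2-tolerant libraries, 266, 238 and 356 CPM in low-glucose-tolerant libraries, and 108, 105 and 124 CPM in controls. Low-glucose-tolerant libraries stood well above the others, and CoCl2-tolerant libraries straddled the controls. The log2 change was 1.35 ± 0.16, or 2.55-fold, in low-glucose-tolerant cells (edgeR adjusted p = 3.89e-06) and -0.02 ± 0.16 in CoCl2-tolerant cells (edgeR adjusted p = 0.935), and the lines differed by -1.37 ± 0.16 (edgeR adjusted p = 4.43e-06). A gene on the other strand overlaps 21.3% of its exon bases.

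IFITM2, a close relative, had 28.7, 18.2 and 18.9 CPM in CoCl2-tolerant libraries, 34.6, 32.6 and 46.9 CPM in low-glucose-tolerant libraries, and 28.9, 26.5 and 29.4 CPM in controls. Low-glucose-tolerant libraries were above all others, and 1 CoCl2-tolerant library lay within the control range. Its rise in low-glucose-tolerant cells, 0.43 ± 0.17 (edgeR adjusted p = 0.041), was lost when scaled by library totals (0.0924), under a stricter filter (0.116), and without low-glucose-tolerant replicate 3 (0.186) or any 1 control (0.067 to 0.122). CoCl2-tolerant lay below low-glucose-tolerant cells by -0.8 ± 0.18 (edgeR adjusted p = 0.00122). The CoCl2-tolerant change of IFITM2 against control, -0.37 ± 0.18, did not pass (edgeR adjusted p = 0.116). It passed with no filter (0.0439), without CoCl2-tolerant replicate 1 (-0.60, edgeR adjusted p = 0.011) and after removing the trend on length and GC (-0.49, edgeR adjusted p = 0.00511). IFITM1 had 9, 15 and 14 counts in CoCl2-tolerant, 9, 21 and 21 in low-glucose-tolerant and 26, 23 and 25 in control libraries and passed in no comparison, though in CoCl2-tolerant cells it did with only the compared groups fitted (-0.73, edgeR adjusted p = 0.0479). IFITM1 and IFITM2 share 32.5% and 22.7% of their exon bases on the same strand and are close copies, so their counts are uncertain. Whether likeness to these relatives also affects the IFITM3 counts was not tested.

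BST2 encodes tetherin, which holds budding virions at the cell surface (chromosome 19, 17402939 to 17405648, minus strand). It had 0, 4 and 5 counts in CoCl2-tolerant libraries, 11, 11 and 16 counts in low-glucose-tolerant libraries, and 13, 14 and 14 counts in controls. CoCl2-tolerant libraries were below all others, at a level near the counting floor. The log2 change in CoCl2-tolerant cells was -1.92 ± 0.55 (edgeR adjusted p = 0.0152), and by summed counts controls were 3.87-fold higher (95% counting interval 1.85 to 9.06). Low-glucose-tolerant cells did not pass against control (0.05, edgeR adjusted p = 0.92), and the lines differed by -1.97 ± 0.56 (edgeR adjusted p = 0.00672).

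Within the ISG15 system, which attaches the ubiquitin-like ISG15 to other proteins, USP18 was the gene that moved most. USP18 removes ISG15 and damps the interferon receptor (chromosome 22, 18149899 to 18177397, plus strand). It had 3.61, 3.26 and 3.32 CPM in CoCl2-tolerant libraries, 6.86, 6.41 and 7.49 CPM in low-glucose-tolerant libraries, and 7.54, 6.73 and 7.27 CPM in controls. CoCl2-tolerant libraries were below the other 6, which overlapped one another. Its log2 change was -1.08 ± 0.14, or 2.11-fold lower, in CoCl2-tolerant cells (edgeR adjusted p = 3.85e-05) and -0.05 in low-glucose-tolerant cells (edgeR adjusted p = 0.728), and the lines differed by -1.03 ± 0.14 (edgeR adjusted p = 1.63e-05). USP41, a near-copy that could share its reads, had at most 2 counts in a library.

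ISG15 itself had 22.6, 12.6 and 18.1 CPM in CoCl2-tolerant libraries, 14.4, 10.6 and 20.9 CPM in low-glucose-tolerant libraries, and 12, 12.9 and 11.8 CPM in controls. Its tolerant libraries were widely spread and overlapped the controls. Neither log2 change passed, at 0.53 ± 0.23 in CoCl2-tolerant (edgeR adjusted p = 0.0802) and 0.32 ± 0.23 in low-glucose-tolerant cells (edgeR adjusted p = 0.223). The CoCl2-tolerant value passed without CoCl2-tolerant replicate 2 (0.0207), without low-glucose-tolerant replicate 2 (0.0361) or 3 (0.0345), with no filter (0.00296), with only the compared groups fitted (0.0216) and after removing the trend on length and GC (0.0361). The low-glucose-tolerant value passed without low-glucose-tolerant replicate 2 (0.0349). HERC5, the ligase that attaches ISG15, had means of 21.6 CPM in CoCl2-tolerant, 21.0 CPM in low-glucose-tolerant and 24.5 CPM in control cells and passed in no comparison, though it passed in low-glucose-tolerant cells without low-glucose-tolerant replicate 1 (-0.39, edgeR adjusted p = 0.0168) and after removing the trend on length and GC (0.0494). HERC6, its relative, fell to 12.9 ± 0.601 CPM in low-glucose-tolerant cells (SD, n = 3), against 17.0 ± 0.572 CPM in controls (log2 change -0.4 ± 0.11, edgeR adjusted p = 0.00486).

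Of the IFI genes, IFI44 rose in both lines. IFI44, an interferon-induced protein that restrains viral growth, had 4.9, 5.43 and 4.8 CPM in CoCl2-tolerant libraries, 6.46, 4.42 and 5.97 CPM in low-glucose-tolerant libraries, and 2.21, 2.65 and 2.51 CPM in controls. All 6 tolerant libraries lay above all controls and the tolerant lines overlapped. On the log2 scale the change was 1.04 ± 0.17 in CoCl2-tolerant (edgeR adjusted p = 0.000402) and 1.19 ± 0.17 in low-glucose-tolerant cells (edgeR adjusted p = 2.46e-05).

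IFI44L, its neighbour on chromosome 1, had 1.93, 2.91 and 2.58 CPM in CoCl2-tolerant libraries, 6.86, 4.97 and 4.41 CPM in low-glucose-tolerant libraries, and 2.99, 2.88 and 2.38 CPM in controls. Low-glucose-tolerant libraries stood above the other 6. The log2 change there was 0.98 ± 0.2 (edgeR adjusted p = 0.000562), against -0.15 in CoCl2-tolerant cells (edgeR adjusted p = 0.614), with -1.13 ± 0.21 between the lines (edgeR adjusted p = 0.000255).

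IFI35, which associates with other interferon-induced proteins, had 41.2, 27.1 and 35.5 CPM in CoCl2-tolerant libraries, 44.5, 34.2 and 56.8 CPM in low-glucose-tolerant libraries, and 23.0, 25 and 23.4 CPM in controls. All tolerant libraries were above the controls, and the lines overlapped. The fitted log2 change was 0.92 ± 0.18 in low-glucose-tolerant cells (edgeR adjusted p = 0.000319). In CoCl2-tolerant cells it was 0.54 ± 0.18 (edgeR adjusted p = 0.0285), a call lost without CoCl2-tolerant replicate 1 or 3 or any 1 control (edgeR adjusted p 0.0625 to 0.116).

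IFI27, a small mitochondrial protein often used as a marker of interferon exposure, was barely detected. It had 12, 16 and 4 counts in CoCl2-tolerant libraries, 0, 3 and 5 counts in low-glucose-tolerant libraries, and 13, 15 and 7 counts in controls. CoCl2-tolerant replicate 3, with 4 counts, lay within the low-glucose-tolerant range. The low-glucose-tolerant fall, -1.92 ± 0.71 (edgeR adjusted p = 0.0256), was lost without control replicate 1 (0.066) or 2 (0.0786) or low-glucose-tolerant replicate 1 (0.0953) or 2 (0.0528). By summed counts controls were 3.92-fold higher (95% counting interval 1.79 to 9.78). IFI6, an endoplasmic reticulum protein, had means of 4.71 CPM in CoCl2-tolerant, 6.3 CPM in low-glucose-tolerant and 4.84 CPM in control cells and passed in no comparison. Without low-glucose-tolerant replicate 2 IFI6 passed in low-glucose-tolerant cells against control (0.56, edgeR adjusted p = 0.00848) and between the lines (-0.60, edgeR adjusted p = 0.00703). XAF1, a pro-apoptotic interferon target, had 0 counts in CoCl2-tolerant, 3 in low-glucose-tolerant and 6 in control libraries in sum, and the 0 allows up to 3 counts.

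**Figure D3:**
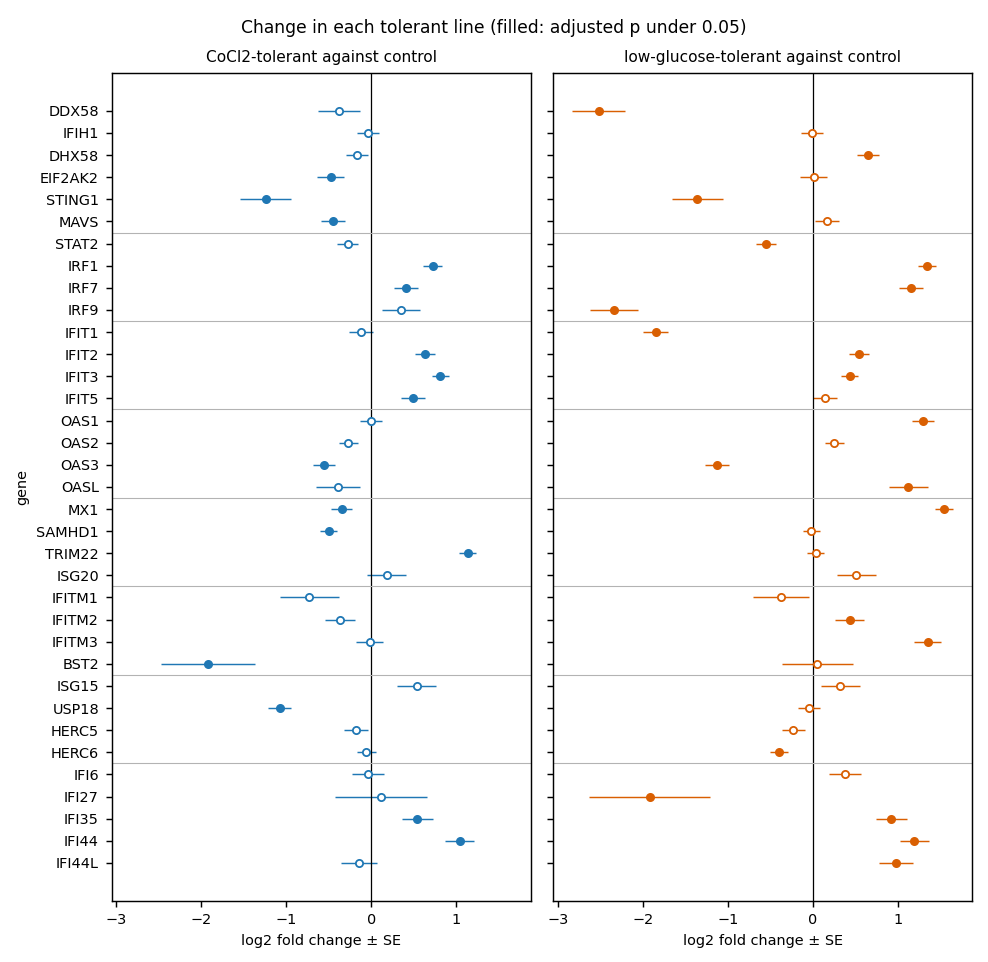
Log2 change of each tested gene with its standard error, CoCl2-tolerant against control in the left panel and low-glucose-tolerant against control in the right, with genes grouped by role and filled points for those that passed the test. MX1 passed on opposite sides of 0, at -0.35 in CoCl2-tolerant and 1.54 in low-glucose-tolerant cells.

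Levels between genes were compared as CPM per kb of exon. IFITM3 was the highest of the 39 genes in each group, at 82.3 in CoCl2-tolerant, 213 in low-glucose-tolerant and 83.5 CPM per kb in control cells. Among the sensors and adaptors the order in controls was MAVS (9.05), EIF2AK2 (8.37), DHX58 (4.18), IFIH1 (2.55), DDX58 (0.432) and STING1 (0.235 CPM per kb). In low-glucose-tolerant cells the same order held down to IFIH1, at 10.1, 8.44, 6.54 and 2.53, followed by STING1 at 0.091 and DDX58 at 0.0749 CPM per kb. In low-glucose-tolerant cells MAVS and EIF2AK2 did not differ beyond their SDs of 2.38 and 1.94, nor did EIF2AK2 and DHX58 beyond 1.94 and 1.12, or STING1 and DDX58 beyond 0.0274 and 0.0184. IRF1 stood 11th of 39 in CoCl2-tolerant and 6th in low-glucose-tolerant cells, against 16th in controls. The CPM of all 39 genes summed to 967 ± 38.0 in CoCl2-tolerant, 1209.8 ± 59.5 in low-glucose-tolerant and 952 ± 13.7 in control libraries (SD, n = 3 each), of which IFITM3 gave 111 CPM in CoCl2-tolerant, 287 CPM in low-glucose-tolerant and 113 CPM in control libraries.

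**Figure D4:**
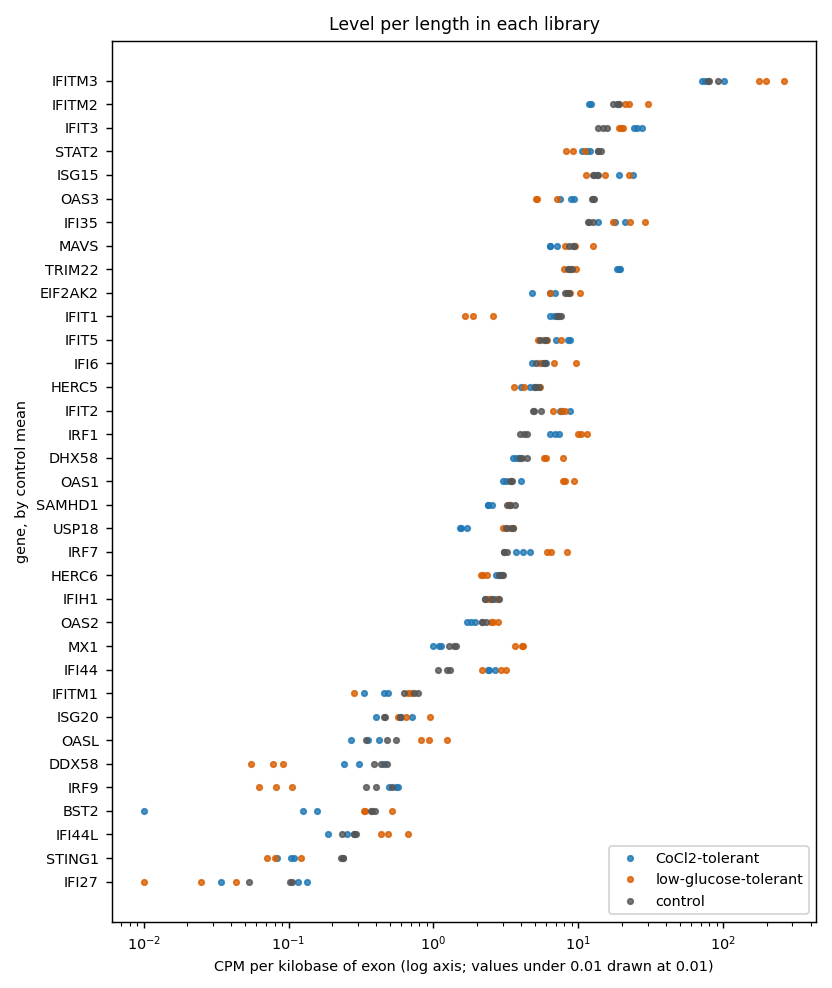
CPM per kb of exon on a log axis for the 35 tested genes, 1 point per library, with genes ordered by their control mean and the 3 groups in separate colours, and values under 0.01 drawn at 0.01. IFITM3 is highest in each group, and the low-glucose-tolerant points of DDX58 and IRF9, with means of 0.0749 and 0.083 CPM per kb, lie left of those of the other groups.

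The other parts of the pathway were read from companion gene lists. Of 21 interferon genes, 2 were listed, IFNA2 and IFNA17, with 1 count each over all 9 libraries, and the rest were not analysed here. Of the 9 interferon receptor and Janus kinase genes tested, 2 rose and 2 fell in CoCl2-tolerant cells (44.4% called, beside 36.1% of all genes), and 1 rose and 3 fell in low-glucose-tolerant cells (44.4%, beside 69.2%). JAK1, a kinase of all interferon receptors, averaged 388 ± 22.4 CPM in CoCl2-tolerant and 423 ± 62.5 CPM in low-glucose-tolerant cells, against 603 ± 8.17 CPM in controls (log2 change -0.64 ± 0.11 in CoCl2-tolerant, edgeR adjusted p = 0.000731, and -0.51 ± 0.11 in low-glucose-tolerant cells, edgeR adjusted p = 0.00115). IFNGR1, a chain of the interferon gamma receptor, averaged 27.2 ± 2.69 CPM in CoCl2-tolerant and 29.2 ± 3.81 CPM in low-glucose-tolerant cells, against 18.7 ± 0.47 CPM in controls (log2 change 0.54 ± 0.12 in CoCl2-tolerant, edgeR adjusted p = 0.00375, and 0.65 ± 0.12 in low-glucose-tolerant cells, edgeR adjusted p = 0.000318). IFNLR1, the interferon lambda receptor chain, fell by 0.8 on the log2 scale in CoCl2-tolerant cells (edgeR adjusted p = 0.00249). TYK2, another receptor kinase, fell by 0.6 in low-glucose-tolerant cells (edgeR adjusted p = 0.000869).

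Of 22 other sensors, adaptors and their kinases, 4 rose and none fell in CoCl2-tolerant cells (18.2% called, beside 36.1% of all genes), and 9 rose and 7 fell in low-glucose-tolerant cells (72.7%, beside 69.2%). IFI16, a nuclear DNA sensor, averaged 91.6 ± 12.5 CPM in CoCl2-tolerant and 187 ± 30.6 CPM in low-glucose-tolerant cells, against 61.9 ± 3.84 CPM in controls (log2 change 0.57 ± 0.13 in CoCl2-tolerant, edgeR adjusted p = 0.00489, and 1.6 ± 0.14 in low-glucose-tolerant cells, edgeR adjusted p = 1.34e-07). RNF135, the ubiquitin ligase that activates RIG-I, averaged 87.9 ± 9.34 CPM in low-glucose-tolerant cells, against 25.8 ± 1.63 CPM in controls (1.77 ± 0.13, edgeR adjusted p = 1.94e-08), and so rose in the line in which DDX58 fell. SAMD9, an antiviral factor, averaged 7.49 ± 1.95 CPM in low-glucose-tolerant cells, against 28.2 ± 1.67 CPM in controls (-1.91 ± 0.2, edgeR adjusted p = 9.67e-07). In CoCl2-tolerant cells RNASEH2C, a subunit of RNase H, rose by 0.75 ± 0.19 (edgeR adjusted p = 0.00771) and TBK1, the kinase downstream of MAVS and STING, by 0.45 ± 0.15 (edgeR adjusted p = 0.0314).

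Of 36 other interferon-stimulated genes, 10 rose and 7 fell in CoCl2-tolerant cells (47.2% called, beside 36.1% of all genes), and 17 rose and 6 fell in low-glucose-tolerant cells (63.9%, beside 69.2%). LAMP3, a lysosomal membrane protein, averaged 37.2 ± 8.26 CPM in low-glucose-tolerant cells and 0.506 ± 0.209 CPM in controls (log2 change 6.2 ± 0.25, edgeR adjusted p = 9.99e-11). EPSTI1 averaged 2.65 ± 0.427 CPM in low-glucose-tolerant cells, against 0.649 ± 0.171 CPM in controls (2.03 ± 0.26, edgeR adjusted p = 7.63e-06), and the transcription factor gene BATF2 rose by 1.78 ± 0.27 (edgeR adjusted p = 3.52e-05). APOL1, which encodes an apolipoprotein, averaged 268 ± 14.9 CPM in CoCl2-tolerant and 39.6 ± 1.34 CPM in low-glucose-tolerant cells, against 84.1 ± 1.91 CPM in controls. It rose by 1.67 ± 0.1 in CoCl2-tolerant cells (edgeR adjusted p = 2.9e-08) and fell in low-glucose-tolerant cells, with -1.09 ± 0.1 (edgeR adjusted p = 2.1e-07), the reverse of the order of MX1. ZNFX1, an RNA-binding helicase, rose by 0.71 ± 0.15 (edgeR adjusted p = 0.00253) and HELZ2 changed by -0.68 ± 0.15 (edgeR adjusted p = 0.00351) in CoCl2-tolerant cells.

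Of 13 genes typical of the interferon gamma response, 4 rose and 1 fell in CoCl2-tolerant cells (38.5% called, beside 36.1% of all genes), and 7 rose and 4 fell in low-glucose-tolerant cells (84.6%, beside 69.2%). CD274, which encodes the checkpoint ligand PD-L1 and is a target of IRF1, averaged 23.9 ± 1.6 CPM in CoCl2-tolerant and 16.0 ± 2.41 CPM in low-glucose-tolerant cells, against 6.15 ± 0.776 CPM in controls (log2 change 1.95 ± 0.14 in CoCl2-tolerant, edgeR adjusted p = 2.35e-07, and 1.38 ± 0.14 in low-glucose-tolerant cells, edgeR adjusted p = 1.03e-06). WARS1, the tryptophan transfer RNA synthetase, averaged 293 ± 9.5 CPM in CoCl2-tolerant and 906 ± 63.1 CPM in low-glucose-tolerant cells, against 156 ± 3.11 CPM in controls (log2 change 0.91 ± 0.1 in CoCl2-tolerant, edgeR adjusted p = 8.58e-06, and 2.54 ± 0.1 in low-glucose-tolerant cells, edgeR adjusted p = 9.31e-11). WARS1 is also known as a target of the amino acid stress factor ATF4. PSMB10, an immunoproteasome subunit, rose by 1.07 ± 0.19 in CoCl2-tolerant cells (edgeR adjusted p = 0.000587). Guanylate-binding protein genes moved in different directions in low-glucose-tolerant cells. There GBP1 averaged 11.8 ± 2.17 CPM, against 52.3 ± 1.61 CPM in controls (-2.15 ± 0.13, edgeR adjusted p = 4.89e-09), and GBP4 changed by -1.55 ± 0.25 (edgeR adjusted p = 6.25e-05). GBP3, named after its values were seen, averaged 37.9 ± 5.07 CPM in low-glucose-tolerant cells, against 28.7 ± 1.37 CPM in controls (0.4 ± 0.12, edgeR adjusted p = 0.00673).

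Of 17 negative regulators of interferon signalling, 3 rose and 3 fell in CoCl2-tolerant cells (35.3% called, beside 36.1% of all genes), and 9 rose and 3 fell in low-glucose-tolerant cells (70.6%, beside 69.2%). IRF2BP2, a corepressor, averaged 49.5 ± 4.69 CPM in CoCl2-tolerant and 105 ± 2.27 CPM in low-glucose-tolerant cells, against 28.5 ± 0.917 CPM in controls (log2 change 0.8 ± 0.1 in CoCl2-tolerant, edgeR adjusted p = 5.34e-05, and 1.89 ± 0.11 in low-glucose-tolerant cells, edgeR adjusted p = 1.98e-09). PIAS1, a SUMO ligase, averaged 32.1 ± 2.81 CPM in CoCl2-tolerant and 20.7 ± 3.18 CPM in low-glucose-tolerant cells, against 48.1 ± 2.5 CPM in controls (log2 change -0.58 ± 0.12 in CoCl2-tolerant, edgeR adjusted p = 0.00257, and -1.21 ± 0.13 in low-glucose-tolerant cells, edgeR adjusted p = 1.06e-06). TNFAIP3 rose by 0.82 ± 0.13 in CoCl2-tolerant cells (edgeR adjusted p = 0.00019) and CYLD by 1.07 ± 0.12 in low-glucose-tolerant cells (edgeR adjusted p = 1.89e-06). Both encode deubiquitinases.

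Markers of leukocytes were low in all groups. The highest was ITGAM, with means of 2.24 CPM in CoCl2-tolerant, 2.99 CPM in low-glucose-tolerant and 2.36 CPM in control cells. Of 13 matched markers 9 were under 1 CPM in every library, and CD3D had 1 count over all 9. Of the 5 that could be tested, IL3RA was higher in CoCl2-tolerant cells, at 1.78 ± 0.268 CPM against 0.748 ± 0.0431 CPM in controls (log2 change 1.24 ± 0.24, edgeR adjusted p = 0.00115), and none passed in low-glucose-tolerant cells. The summed level of all 13 ran from 6.02 to 6.65 CPM in CoCl2-tolerant, 4.96 to 6.82 CPM in low-glucose-tolerant and 5.95 to 6.67 CPM in control libraries. Of 15 markers of colorectal epithelium 8 were under 1 CPM in every library. They were VIL1, CDH17, KRT20, MUC2, TFF3, FABP1 and the intestinal factors CDX1 and CDX2, with 2 counts and 1 count over all libraries. EPCAM and the keratins KRT8, KRT18 and KRT19 were well detected. Of the 7 that could be tested, 1 rose and 5 fell in CoCl2-tolerant cells, and 3 rose and 3 fell in low-glucose-tolerant cells. That is 85.7% called in each line, beside 36.1% of all genes in CoCl2-tolerant and 69.2% in low-glucose-tolerant cells. CDH1, which encodes E-cadherin, averaged 1.41 ± 0.133 CPM in CoCl2-tolerant and 8.14 ± 1.48 CPM in low-glucose-tolerant cells, against 17.8 ± 0.465 CPM in controls. EPCAM averaged 21.8 ± 1.99 CPM in CoCl2-tolerant and 55.7 ± 14.4 CPM in low-glucose-tolerant cells, against 54.7 ± 3.1 CPM in controls, and KRT18 averaged 98.6 ± 9.17, 571 ± 110 and 107 ± 3.56 CPM in CoCl2-tolerant, low-glucose-tolerant and control cells. In the same order of groups KRT8 averaged 493 ± 43.0, 1296.4 ± 196 and 657 ± 3.24 CPM, and KRT19 911 ± 97.3, 943 ± 165 and 550 ± 11.8 CPM. LGR5 averaged 0.229 ± 0.0804, 0.0796 ± 0.0709 and 1.61 ± 0.179 CPM, and GPA33 0.547 ± 0.194, 0.103 ± 0.0669 and 1.14 ± 0.135 CPM. The part of these markers in the changes of interferon-stimulated genes was not tested.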

How the data were processed

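RNA-seq of 9 libraries of HCT-15 cells was analysed: 3 CoCl2-tolerant, 3 low-glucose-tolerant and 3 control. The deposited values are raw read counts per gene. The authors used featureCounts, DESeq2 and build GRCh38, per the submitters' processing notes. Which aligner, gene annotation and strand option they used is not stated in these sources. A brefeldin A-tolerant line was not analysed here. Symbols came from a gene name table (35938 genes) and from GENCODE release 29 (76 more), which also gave positions, exon lengths and overlaps for 34888 genes.

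Genes were tested with edgeR 4.0.16 (R 4.3.3). The filter filterByExpr, set by group, left 17902 genes, scaled by TMM (factors 0.922 to 1.04). A mean for each group was fitted over the 9 libraries together and compared by the quasi-likelihood F test, with Benjamini-Hochberg adjustment over all genes within each comparison and a threshold of 0.05. CPM use the library total times its TMM factor. Levels between genes are CPM per kb of merged exons, whatever isoform is used. Ratios of low counts carry exact 95% intervals. No pair of libraries of a group agreed within sampling noise (chi-square per degree of freedom 2.18 to 66.7). None was therefore taken as a repeat read of another, and all counted as replicates. The value was 2.18 to 6.2 within controls, 7.56 to 29.2 within CoCl2-tolerant and 24.6 to 66.7 within low-glucose-tolerant libraries. It cannot show that libraries came from separate cultures. Python 3.11.15, pandas 2.3.3 and matplotlib 3.10.9 made the tables and figures. The procedure was tested on simulated counts. The alternatives were other scalings, other filters, DESeq2 1.42.0, the compared groups alone, the replicate number as a block, leaving out each library, and, added after seeing the data, removal of a trend on transcript length and GC content.

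The genes and companion lists were chosen with earlier results of these data known. Values per library are given for the sensors, adaptors and transcription factors among the genes and for every other member called with a 2-fold change in any comparison. A few others are shown beside their family. From each companion list except the markers of leukocytes and colorectal epithelium, up to 3 genes per control comparison are named. These had the largest called change and at least 1 CPM in the higher group. Values are given for all 7 tested markers of colorectal epithelium. RNF31, AL136295.5, AL353751.1 and USP41 were added after their values were seen. Some genes are not reported here.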

Additional observations from a re-analysis of the deposited data

Results flagged for a closer look

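MX1 was marked because it passed the test against control in opposite directions in the tolerant lines, with log2 changes of -0.35 in CoCl2-tolerant and 1.54 in low-glucose-tolerant cells. The difference between the lines was itself tested in the direct comparison and was -1.89 ± 0.12 (SE, n = 3 each, edgeR adjusted p = 6.83e-09). All 3 CoCl2-tolerant libraries were below all 3 controls, and all 3 low-glucose-tolerant libraries above them. The CoCl2-tolerant fall lost its call in 7 of 17 alternatives, with an edgeR adjusted p of 0.0559 under the replicate block.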

How the results depend on the processing

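Across 17 alternatives, none of 1756 values of single members changed the sign of a called change, 57 lost a call and 45 gained one. Of 61 called member results, 49 kept the call under each alternative in which the gene was tested, and the stricter filter tested 26 of the 35. With 1 library left out in turn, members called in CoCl2-tolerant cells against control ranged from 5 to 9 higher and 5 to 10 lower, and in low-glucose-tolerant cells from 12 to 16 higher and 7 to 8 lower. In the direct comparison they ranged from 7 to 9 higher and 15 to 16 lower in CoCl2-tolerant cells. The median log2 change of the members ranged from -0.17 to -0.09 in CoCl2-tolerant cells against control, from 0.15 to 0.27 in low-glucose-tolerant cells against control and from -0.42 to -0.15 between the lines, the last lowest without low-glucose-tolerant replicate 1 and nearest 0 without replicate 3. Requiring 5 CPM in 3 or more libraries left 26 members tested, 4 of them lower in low-glucose-tolerant cells. Scaling by library totals moved the median over all genes by -0.10 in low-glucose-tolerant cells against control and by 0.09 between the lines, and the members' median there to 0.06 and between the lines to -0.26. Removing the length and GC trend gave 0.30 and -0.31. The causes were not tested.

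The labels do not state that replicate numbers pair libraries across groups. Residuals of same-numbered libraries correlated at -0.26 to 0.124 over 9 pairs, and those of different numbers at -0.242 to 0.205 over 18. No shared effect of the number was seen, which cannot show whether libraries were paired in culture or preparation. With the replicate block, 8 members were higher and 7 lower in CoCl2-tolerant cells, 13 higher and 8 lower in low-glucose-tolerant cells, and 9 higher and 15 lower between the lines. At a depth where 3 counts are 0.0918 to 0.119 CPM without the TMM factor, CGAS, MX2, RSAD2 and XAF1 could not be compared.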
